A study of Mus musculus with 12 samples.

Results

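The genes described here are 10 repressors of the circadian clock, namely the period genes Per1, Per2 and Per3, the cryptochromes Cry1 and Cry2, the Rev-erb receptor genes Nr1d1 and Nr1d2, and Ciart, Bhlhe40 and Bhlhe41. They were taken by gene symbol, and 19 probe sets, the short oligonucleotide sets that each report 1 transcript region, carried 1 of these symbols, out of 34945 probe sets and 18193 genes named in the same way. Whole kidneys came from male mice aged 2.5 months, an F1 cross between C57BL6 and 129/SvEv, which were either wild type (WT) or lacked the AT1A angiotensin receptor (KO, labelled AGTR1A-KO). Mice of each genotype were sampled at baseline or following an infusion of angiotensin II (ANG II), the peptide that the receptor binds, given over 2 days at 1 ug/kg/min, and all 4 groups were on a diet labelled NS. Each group held 3 mice with 1 Affymetrix mouse expression array each. Agtr1a encodes the AT1A receptor, and mice carry a further AT1 receptor gene, Agtr1b, which the labels do not list as deleted. The sources used here do not give the hour of day at which the kidneys were collected. If it differed between the groups, its effect on clock genes and that of infusion or genotype cannot be told apart in the results that follow.

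The circadian clock is a feedback loop of transcription that runs in nearly all cells, kidney tubule cells included. The activators CLOCK and BMAL1 (gene Arntl) bind E-boxes and switch on the Per and Cry genes, whose proteins return to the nucleus and block CLOCK and BMAL1. A second loop is made by the REV-ERB receptors, which E-boxes also drive and which repress Arntl, Cry1 and Nfil3 through ROR elements. PAR bZIP factors such as DBP act on D-boxes, for example in the Per genes. In the kidney, transcripts under clock control include transporters and channels of the distal nephron, and Per1 is known there as a gene that aldosterone induces.

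Promoter sequence was available for 8 of the 10 genes, in RefSeq windows of assembly GRCm38.p6, and Per2 and Bhlhe40 had no entry. In the 250 bases before the start site, both strands were searched for the E-box CACGTG, the related CACGTT, the D-box as TTATGTAA or TTACGTAA, the ROR element core TAGGTCA and the cAMP response element TGACGTCA. Stretches of Cry1, Nr1d1 and Ciart are shown because these genes were called both in the WT response and between the genotypes at baseline. Per3 is shown because it alone matched the D-box letters searched. The 4 stretches read 5′ to 3′ on the gene's strand, all of them the minus strand. Capitals mark matches, and bases inside the annotated gene were left out.
Cry1, chr10:85185055-85185304: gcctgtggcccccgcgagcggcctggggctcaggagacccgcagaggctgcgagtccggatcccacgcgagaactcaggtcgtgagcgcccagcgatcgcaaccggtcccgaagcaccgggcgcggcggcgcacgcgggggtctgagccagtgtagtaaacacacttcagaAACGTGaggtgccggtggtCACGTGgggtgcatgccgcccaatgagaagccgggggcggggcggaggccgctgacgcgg
Nr1d1, chr11:98775378-98775627: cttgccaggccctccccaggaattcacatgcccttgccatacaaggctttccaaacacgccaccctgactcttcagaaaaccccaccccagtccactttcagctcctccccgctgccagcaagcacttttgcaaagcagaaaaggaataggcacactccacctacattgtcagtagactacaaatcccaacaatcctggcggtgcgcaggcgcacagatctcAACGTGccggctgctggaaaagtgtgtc
Ciart, chr3:95882258-95882478: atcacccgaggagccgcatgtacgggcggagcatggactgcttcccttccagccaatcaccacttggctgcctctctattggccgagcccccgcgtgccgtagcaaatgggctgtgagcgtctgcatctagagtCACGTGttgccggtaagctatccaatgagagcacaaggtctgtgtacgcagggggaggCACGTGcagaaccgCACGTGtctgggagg
Per3, chr4:151044708-151044915: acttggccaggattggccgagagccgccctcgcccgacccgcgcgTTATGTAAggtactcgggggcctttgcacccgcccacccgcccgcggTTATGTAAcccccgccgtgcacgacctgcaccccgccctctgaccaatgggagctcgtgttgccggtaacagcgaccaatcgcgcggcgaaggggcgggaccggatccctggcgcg

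Ciart held 3 E-boxes in this window, and Cry1 held 1 E-box with 1 CACGTT match. Of the 9 windows of members, Per1 having a pair of start sites, 4 held CACGTG, namely those of Cry1, Ciart, Bhlhe41 and Per1, against 6.02% of all 32851 promoters. CACGTT was found in the windows of Cry1, Cry2 and Nr1d1, against 3.85% of all promoters, and TTATGTAA in that of Per3, against 0.819%. TTACGTAA, TAGGTCA and TGACGTCA were in none of the 9 windows, and 0.113%, 2.23% and 1.55% of all promoters held them. The Nr1d2 window held none of these letters. A match is a run of letters and not a measured binding site.

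The deposited values are ratios to the median of the 12 arrays for that probe set, and a value of 1 is the median kidney and levels of different genes cannot be compared. For the same reason the presence of kidney markers could not be checked. Errors of log2 changes are standard errors of 1 limma fit to all 12 arrays, and the word called stands for an adjusted p under 0.05, with Benjamini-Hochberg adjustment over 45037 probe sets. The labels do not say whether mice shared litters or days, so the p-values measure the spread between these 12 mice. The 1 probe set of Agtr1a had ratios of 1.36 to 1.40 in untreated WT kidneys, 0.957 to 1.00 in infused WT kidneys and 0.917 to 1.05 over both KO groups, so it separated the genotypes at baseline only. The sources used here do not say whether the probed sequence is among what was deleted. The SD of log2 ratios over all probe sets was 0.164 to 0.180 for untreated WT, 0.268 to 0.342 for infused WT, 0.222 to 0.262 for untreated KO and 0.165 to 0.196 for infused KO kidneys. The 3′ minus 5′ difference of the Actb and Gapdh control probe sets, a relative sign of RNA quality, was 0.036 to 0.067 on the log2 scale for infused WT kidneys and -0.040 to 0.011 for the other 9. Its part in the results was not tested. In whole kidney, fewer cells of a type and less RNA per cell cannot be told apart.

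**Figure D1:**
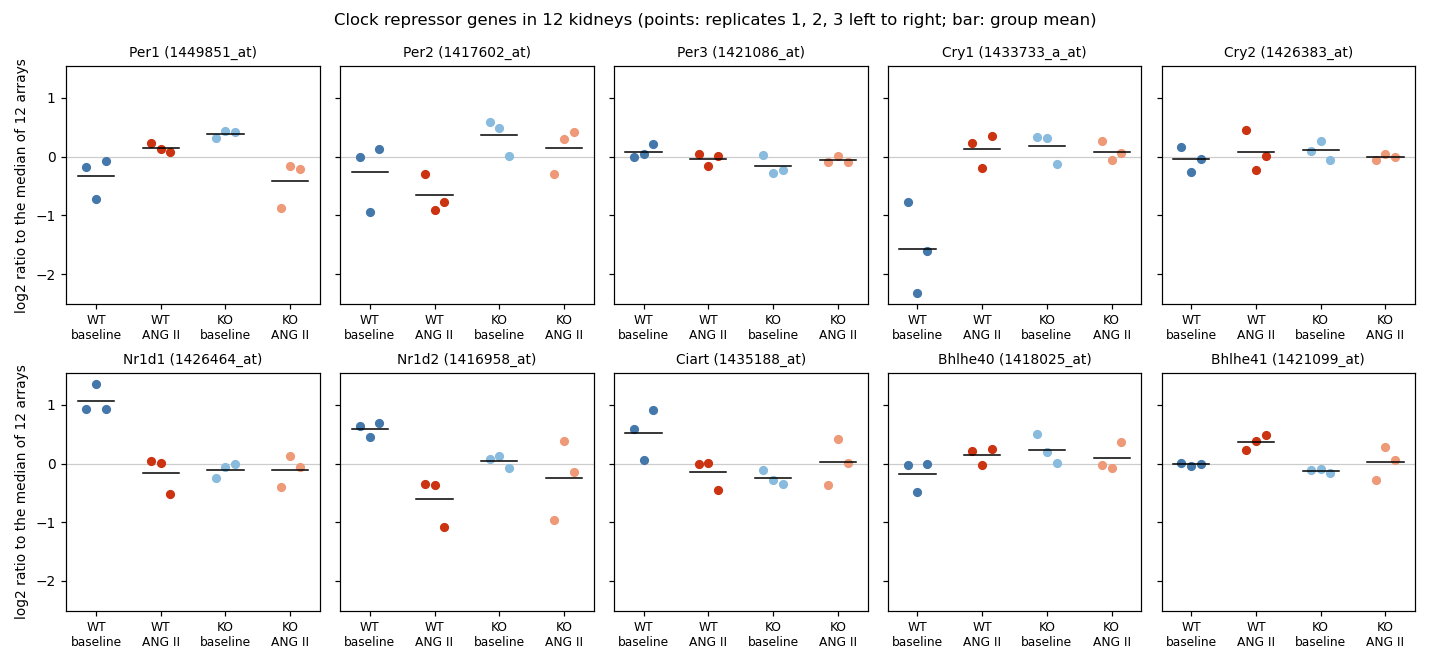
Log2 ratio (vertical axis, 0 is the median of the 12 arrays) of 1 probe set for each of the 10 clock repressors in every kidney, by group along the horizontal axis. Points are the 3 mice of a group and the bar is their mean. The WT baseline points lie above all others for Nr1d1 and Nr1d2 and below all others for Cry1.

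The first comparison asked how the infusion changed these genes where the receptor is present. In WT kidneys both Rev-erb genes fell with ANG II, Cry1 rose 3.24-fold, and Ciart and 1 probe set of Per3 fell, while 1 probe set of Bhlhe41 rose. Of the 19 probe sets 2 rose and 5 fell, where 10.9% of all probe sets rose and 13.3% fell. The members' median log2 change was -0.12 and that of all probe sets 0.05, and the median size without sign was 0.39 against 0.18. Members of 1 gene share their transcript, so the 19 values are not independent.

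Nr1d1 encodes REV-ERB alpha, a heme-binding receptor that represses Arntl. Its ratios were 1.91, 2.55 and 1.90 in the WT baseline kidneys and 1.04, 1.00 and 0.698 in the WT ANG II kidneys. The groups did not overlap, and the lowest baseline kidney was well above the highest infused one. Nr1d1 was 2.34-fold lower after the infusion, at -1.23 ± 0.17 on the log2 scale (n = 3 per group, limma adjusted p = 0.00031). After quantile normalization of the deposited ratios the change was -2.07.

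Nr1d2 encodes the closely related REV-ERB beta, and its probe sets gave the same picture. The first read 1.55, 1.37 and 1.62 at baseline and 0.785, 0.772 and 0.471 under ANG II, and the other read 1.54, 1.19 and 1.72 at baseline and 0.835, 0.698 and 0.59 under ANG II. In both, every infused WT kidney lay below every baseline WT kidney, and replicate 3 was the lowest of the infused. The log2 changes were -1.20 ± 0.26 (limma adjusted p = 0.00604) and -1.07 ± 0.21 (limma adjusted p = 0.00307).

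Cry1 encodes a cryptochrome that blocks CLOCK and BMAL1 and is itself a target of the REV-ERB receptors. Its ratio was 0.582, 0.2 and 0.328 in the WT baseline kidneys and 1.17, 0.873 and 1.27 in the WT ANG II kidneys. All 3 baseline kidneys were low, but they spread widely, with an SD of 0.77 on the log2 scale, the widest of any member in that group. The log2 change was 1.70 ± 0.28 (limma adjusted p = 0.00114), and without any 1 array it stayed between 1.32 and 2.09. Cry2, the other cryptochrome, was not called, with ratios of 0.836 to 1.13 at baseline and 0.851 to 1.37 under ANG II. Its change of 0.12 had a 95% interval of -0.21 to 0.45, which lies below the whole interval of Cry1, 1.09 to 2.30. The difference between these genes was not tested.

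Ciart encodes CHRONO, which binds BMAL1 and represses E-box genes, and its promoter above is the one with 3 E-boxes. It read 1.50, 1.04 and 1.88 at baseline and 0.997, 1.00 and 0.734 under ANG II in WT kidneys. The groups did not overlap, though the lowest baseline kidney was close to the highest infused one. Ciart fell by 0.67 ± 0.21 (limma adjusted p = 0.0355). This call ended on leaving out WT baseline replicate 1 (adjusted p = 0.109) or 3 (0.132), without WT ANG II replicate 2 or 3 (0.0519 and 0.139), with quantile normalization (0.056) and with array weights (0.0913).

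Per3 was measured by 6 probe sets. A single one was called, at 1.36, 0.948 and 1.38 in the WT baseline kidneys and 0.751, 0.817 and 0.764 in the WT ANG II kidneys, a fall of 0.64 ± 0.17 (limma adjusted p = 0.0178). The other 5 had log2 changes of -0.60 to 0.09, and none was called. Of these, 1441445_at and 1442243_at had WT groups that did not overlap, with changes of -0.60 ± 0.23 (limma adjusted p = 0.0737) and -0.36 ± 0.15 (limma adjusted p = 0.0916). The fall of 1441445_at was called in the fit of the WT groups alone (adjusted p = 0.0146) and with probe sets of low spread left out (0.0444). It was also called without KO ANG II replicate 1 (0.00939) or 2 (0.0304). The remaining 3 overlapped, and 1421086_at and 1460662_at moved little in any group, with ratios of 0.823 to 1.18 in all 12 kidneys. The call of 1421087_at was lost on leaving out WT baseline replicate 1 (adjusted p = 0.0799), the same group's replicate 3 (0.0625) or WT ANG II replicate 3 (0.0519), and after quantile normalization (0.0629).

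Per1 and Per2, the period genes that hormones and light can induce within hours, were not called in the WT response. Per1 read 0.885, 0.604 and 0.95 at baseline and 1.17, 1.10 and 1.05 under ANG II. Every infused WT kidney was above every baseline one, and the log2 change was 0.47 ± 0.18 (limma adjusted p = 0.0739). That change passed the threshold without WT baseline replicate 3 (adjusted p = 0.0495) and without KO ANG II replicate 1 (adjusted p = 0.0261). The 3 Per2 probe sets disagreed in sign, at -0.39 ± 0.27, -0.01 ± 0.18 and 0.33 ± 0.22, and all overlapped between the groups. The change of -0.39, that of 1417602_at, was -0.72 and called without WT baseline replicate 2 (limma adjusted p = 0.0459).

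Bhlhe40 and Bhlhe41 encode DEC1 and DEC2, repressors that compete for E-boxes. Bhlhe41 read 1.00, 0.972 and 0.998 at baseline and 1.17, 1.31 and 1.41 under ANG II in WT kidneys, a close baseline group below a higher infused one. It rose by 0.38 ± 0.12 (limma adjusted p = 0.0337), while its other probe set changed by 0.19 ± 0.16 and was not called. The rise lost its call without any 1 WT baseline array (adjusted p = 0.0842, 0.084 and 0.0664 for replicates 1 to 3), without WT ANG II replicate 2 or 3 (0.0798 and 0.117), with quantile normalization (0.175) and with the mean of both probe sets (0.0604). Bhlhe40 overlapped between the groups, and its change was 0.32 ± 0.16 (limma adjusted p = 0.15).

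The second comparison gave the same infusion to mice without the AT1A receptor. Per1 fell in KO kidneys and no other member was called, so 0 of the 19 probe sets rose and 1 fell, where 3.6% of all probe sets rose and 6.31% fell. Per1 read 1.24, 1.35 and 1.35 in the KO baseline kidneys and 0.545, 0.9 and 0.869 in the KO ANG II kidneys. All 3 baseline kidneys were high and close together, and infused replicate 1 was well below its group. The fall was 0.80 ± 0.18 on the log2 scale, 1.74-fold (limma adjusted p = 0.015), and leaving out KO baseline replicate 2 ended the call (adjusted p = 0.0543).

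The members that moved most in WT kidneys overlapped between the KO groups. Nr1d1 read 0.843, 0.959 and 0.997 at baseline and 0.758, 1.09 and 0.958 under ANG II, a log2 change of -0.01 with a 95% interval of -0.37 to 0.35. Cry1 read 1.25, 1.25 and 0.916 at baseline and 1.20, 0.958 and 1.04 under ANG II, a change of -0.09 with an interval of -0.69 to 0.51. Both intervals lie away from the WT changes of these genes, and the difference itself was tested in the third comparison. Ciart changed by 0.27 ± 0.21, and the Nr1d2 probe sets by -0.28 ± 0.26 and 0.14 ± 0.21.

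**Figure D2:**
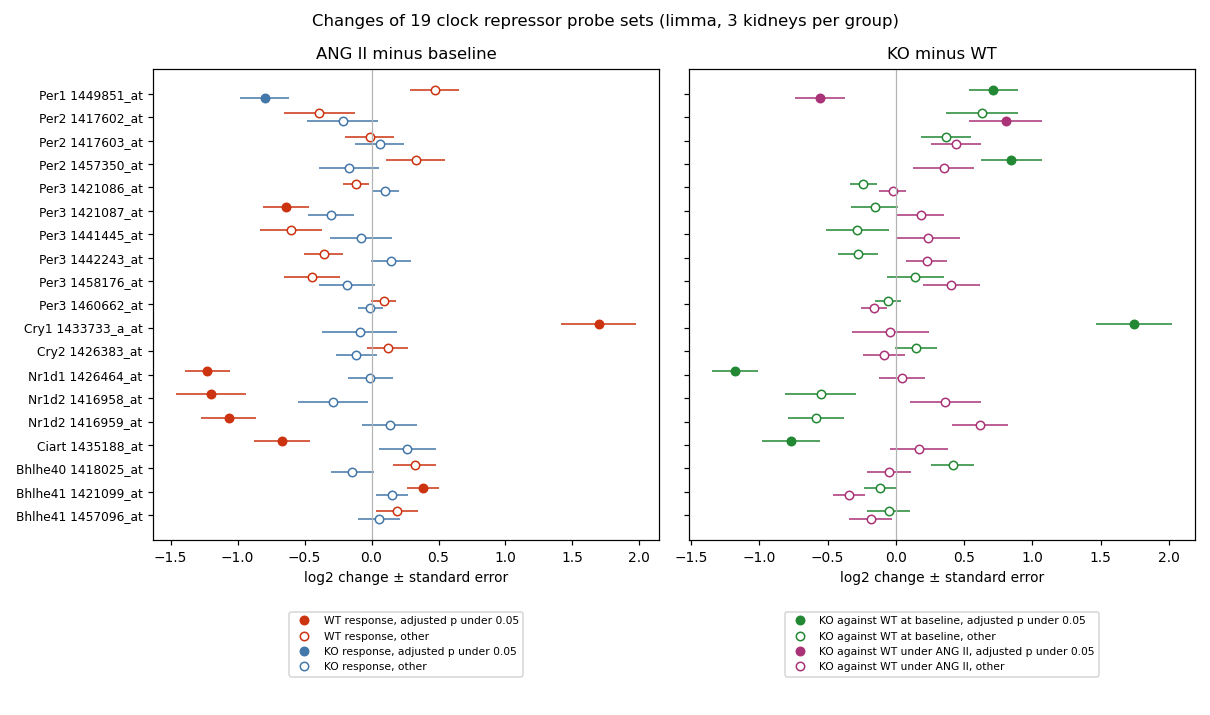
Log2 changes with standard errors (horizontal axis) of the 19 probe sets of the 10 genes (vertical axis), ANG II minus baseline on the left and KO minus WT on the right, from 3 kidneys per group. Filled points had a limma adjusted p under 0.05. Cry1, Nr1d1 and Nr1d2 depart from 0 in the WT response, and their KO responses lie near 0.

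The third comparison set the KO response against the WT response in 1 test. The responses differed for Per1, Cry1, Nr1d1 and 1 of the Nr1d2 probe sets. Of the 19 probe sets 2 had higher responses in KO and 2 lower ones, where 5.7% of all probe sets were higher and 4.08% lower. The KO response minus the WT response was 1.22 ± 0.24 for Nr1d1 (limma adjusted p = 0.00645), 1.20 ± 0.29 for Nr1d2 at 1416959_at (limma adjusted p = 0.0201), -1.78 ± 0.40 for Cry1 (limma adjusted p = 0.0133) and -1.27 ± 0.26 for Per1 (limma adjusted p = 0.00794). The second Nr1d2 probe set differed by 0.91 ± 0.37 (limma adjusted p = 0.142) and Ciart by 0.93 ± 0.30 (limma adjusted p = 0.066). For Per1 the change was 0.47 in WT kidneys, which was not called, and -0.80 in KO kidneys, while Nr1d1 and Cry1 were called in WT kidneys and near 0 in KO kidneys. Leaving out WT baseline replicate 3 (adjusted p = 0.0541) or KO ANG II replicate 3 (0.0531) ended the call of Nr1d2. Without KO ANG II replicate 1 the count was 8 in place of 4, with Ciart (adjusted p = 0.0294), the second Nr1d2 probe set (0.0136) and a pair of Per3 probe sets (0.0232 and 0.0496) called in addition. Ciart was also called with probe sets of low spread left out (0.0381) and without WT baseline replicate 2 (0.0225).

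The fourth comparison set untreated KO kidneys against untreated WT kidneys. Its arrays also serve as the baseline of the WT and KO responses, so the values are given side by side and not as separate support. Cry1, Per1 and 1 probe set of Per2 were higher in KO, and Nr1d1 and Ciart were lower, so 3 of the 19 probe sets were called higher and 2 lower. Of all probe sets 4.87% were higher and 1.65% lower. The members' median log2 difference without sign was 0.37, against 0.12 for all probe sets.

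Cry1 was 3.35-fold higher in KO than in WT kidneys at baseline (1.74 ± 0.28, limma adjusted p = 0.00292), beside a WT response of 1.70. Nr1d1 was 2.26-fold lower (-1.18 ± 0.17, limma adjusted p = 0.00141), beside a WT response of -1.23, and quantile normalization gave -2.06. Every KO baseline kidney lay outside the WT baseline range for both genes. Ciart was 1.70-fold lower (-0.77 ± 0.21, limma adjusted p = 0.0467). The Nr1d2 probe sets differed by -0.55 ± 0.26 (limma adjusted p = 0.231) and -0.59 ± 0.21 (limma adjusted p = 0.109), and their groups did not overlap, although neither passed the threshold. Both passed it in the fit of these groups alone (adjusted p = 0.0118 and 0.0263), and the second also did without KO ANG II replicate 1 (0.0315).

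Per1 was 1.64-fold higher in the KO baseline kidneys (0.71 ± 0.18, limma adjusted p = 0.0331). Per2 at 1457350_at read 1.44, 1.69 and 1.11 there against 0.938, 0.506 and 0.973 in WT, a difference of 0.85 ± 0.22 (limma adjusted p = 0.0383). Both groups were apart for these probe sets, with WT replicate 2 the lowest of the 6 kidneys in each. The other Per2 probe sets differed by 0.63 ± 0.27 and 0.37 ± 0.18 and were not called. Bhlhe40 was 0.42 ± 0.16 higher (limma adjusted p = 0.139).

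The baseline calls other than those of Cry1 and Nr1d1 depended on single arrays. That of Per1 ended without WT replicate 2 (adjusted p = 0.126), without KO replicates 1, 2 or 3 (0.063, 0.107 and 0.0833) and with quantile normalization (0.0635). That of Per2 ended without WT replicate 2 (0.116), without KO replicate 1 or 2 (0.0954 and 0.155), without WT ANG II replicate 2 (0.0511), with quantile normalization (0.0738) and with these groups alone (0.0653). That of Ciart ended without WT replicate 1 or 3 (0.106 and 0.202), without KO replicates 1, 2 or 3 (0.0743, 0.135 and 0.12), without WT ANG II replicate 1 or 2 (0.0545 and 0.0585) and without KO ANG II replicate 3 (0.0559).

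The last comparison set infused KO kidneys against infused WT kidneys. In KO 1 probe set of Per2 was higher and Per1 was lower. Of the 19 probe sets 1 was thus higher and 1 lower, where 11.7% of all probe sets were higher and 8.17% lower. Per2 at 1417602_at read 0.815, 1.24 and 1.34 in KO and 0.812, 0.533 and 0.586 in WT, so the lowest KO kidney all but met the highest WT kidney. The difference was 0.80 ± 0.27 (limma adjusted p = 0.0472), and that of Per1 was -0.56 ± 0.18 (limma adjusted p = 0.0462). At 1417603_at and 1457350_at Per2 overlapped between the groups and differed by 0.44 ± 0.18 and 0.35 ± 0.22. Neither was called (limma adjusted p = 0.1 and 0.276). The Per2 call at baseline was that of 1457350_at, so no Per2 probe set was called in both comparisons. Nr1d1 and Cry1 differed by 0.04 ± 0.17 and -0.04 ± 0.28, with 95% intervals of -0.32 to 0.40 and -0.64 to 0.56. Nr1d2 at 1416959_at overlapped between the groups and was 0.62 ± 0.21 higher in KO, with a 95% interval of 0.17 to 1.06, which just missed the threshold (limma adjusted p = 0.0502). It passed with a variance trend (0.0473), with arrays centred on the median (0.0449), with probe sets of low spread left out (0.0302), and without WT baseline replicate 2 (0.0484), WT ANG II replicate 1 (0.0336) or KO ANG II replicate 1 (0.00418). Without the last of these the other Nr1d2 probe set passed too (0.0376), as did Per3 at 1441445_at and 1458176_at (0.029 and 0.0335), all higher in KO. Bhlhe41 at 1421099_at overlapped between the groups and was 0.34 ± 0.12 lower in KO (limma adjusted p = 0.0574). That difference passed without WT ANG II replicate 1 (0.0361) or KO ANG II replicate 2 (0.0129). The other Bhlhe41 probe set differed by -0.19 ± 0.16 and was not called. The calls of Per1 and Per2 are close to the threshold: that of Per1 ended under 13 of the 21 alternatives and that of Per2 under 10. Leaving out KO ANG II replicate 1 moved the Per1 difference to -0.32 (adjusted p = 0.186). Its call also ended on leaving out KO ANG II replicate 3 (0.0505), WT baseline replicate 1 (0.0547), any 1 of WT ANG II replicates 1 to 3 (0.0934, 0.0953 and 0.0845) or any 1 of KO baseline replicates 1 to 3 (0.0565, 0.0571 and 0.0565). The Per2 call ended on leaving out WT ANG II replicate 2 or 3 (0.144 and 0.129), KO ANG II replicate 2 or 3 (0.11 and 0.152), WT baseline replicate 1 (0.0539) or KO baseline replicate 1 or 2 (0.0529 and 0.0569), and it was highest in adjusted p after quantile normalization (0.163). After quantile normalization 70.9% of all probe sets called here were higher in KO, against 58.8% as deposited, and in the WT response 32.9% of those called rose, against 44.9%.

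The position of each group among all 12 kidneys summarises these comparisons. In the WT baseline kidneys Nr1d1 and Nr1d2 at 1416958_at lay above all of the other 9 arrays and Cry1 below all of them, 3 of 19 probe sets, where 2.75% of all probe sets set this group apart. In the KO baseline kidneys Per1 was above all of the others, 1 of 19, where 11.8% of all probe sets were apart. No member set the WT ANG II kidneys or the KO ANG II kidneys apart, where 19.7% and 3.37% of all probe sets did. The order of mean log2 ratios for Cry1 was KO baseline (0.17), WT ANG II (0.12), KO ANG II (0.09) and WT baseline (-1.57), and the upper 3 groups overlapped. For Per1 it was KO baseline (0.39), WT ANG II (0.15), WT baseline (-0.33) and KO ANG II (-0.41), of which the last pair overlapped.

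Mice of the same group also spread in these genes. The median SD of the members within a group was 0.27 on the log2 scale in the WT baseline kidneys and 0.29 in the KO ANG II kidneys, against 0.10 and 0.11 for all probe sets. In these groups 12 and 14 of the 19 probe sets had a within-group SD above the 90th percentile of all probe sets, and in the WT ANG II and KO baseline groups 6 and 6 did. KO ANG II replicate 1 had the lowest value of its group in 14 of 19 probe sets and replicate 2 the highest in 15, where replicate 1 was lowest in 38.1% and replicate 2 highest in 35.1% of all probe sets. For Nr1d2 at 1416958_at these mice read 0.514 and 1.30, with replicate 3 between them at 0.906. WT baseline replicate 2 had the lowest value of its group in 15 of 19 probe sets, against 33.8% of all probe sets, while for Nr1d1 the same mouse had the highest, 2.55.

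**Figure D3:**
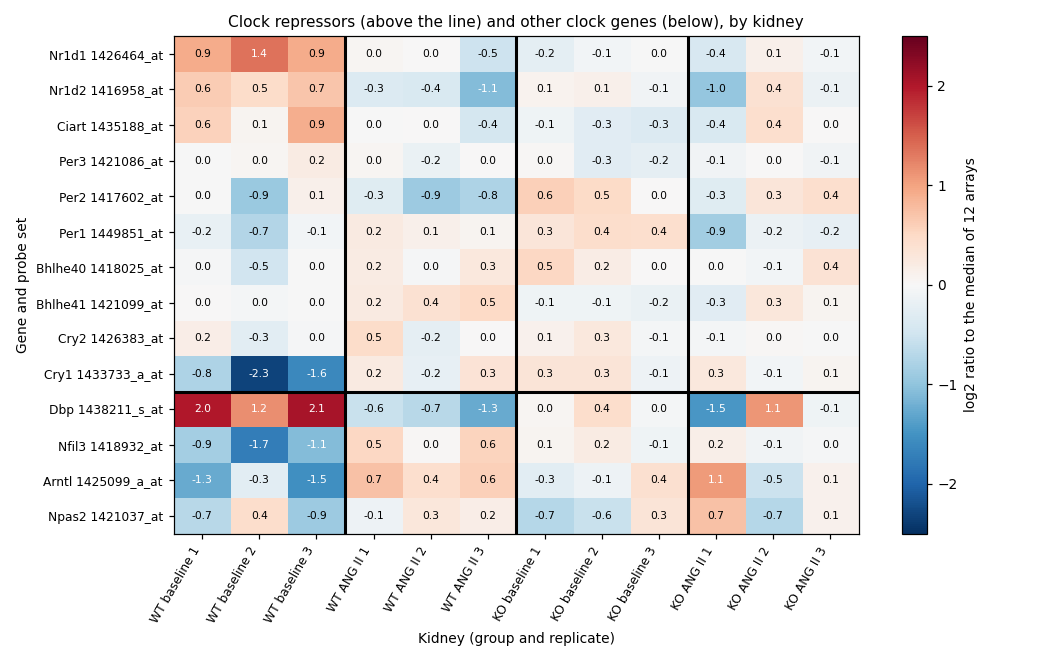
Log2 ratio (colour and number, 0 is the median of the 12 arrays) of the 10 repressors, above the horizontal line, and of Dbp, Nfil3, Arntl and Npas2, below it (the probe set of each with the widest spread over the arrays), in each of 12 kidneys (columns). The WT baseline columns stand out in Nr1d1, Nr1d2, Cry1, Dbp and Nfil3, though in Dbp and Nr1d2 KO ANG II replicate 2 is close to WT baseline replicate 2. KO ANG II replicates 1 and 2 have opposite signs in Dbp, Arntl and Npas2.

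The activators and output genes of the clock, which the repressors act on, were followed over the same arrays. Of 20 probe sets of 5 activator genes 8 rose and 0 fell in the WT response, with a median of 0.27, and 1 rose and 0 fell in the KO response. Over all probe sets 10.9% rose and 13.3% fell in the WT response, and 3.6% rose and 6.31% fell in the KO response. Arntl, the target of the REV-ERB receptors, read 0.419, 0.829 and 0.346 at baseline and 1.66, 1.33 and 1.51 under ANG II in WT kidneys at 1425099_a_at. It rose by 1.60 ± 0.35 (limma adjusted p = 0.0064), and by 0.60 ± 0.12 at 1457740_at (limma adjusted p = 0.00408). Rora, an activator at the same elements, rose by 0.76 ± 0.09 at 1424034_at (limma adjusted p = 0.000121). Its other probe sets changed by -0.10 to 0.52. The 1 activator probe set that rose in KO kidneys was Rora 1424034_at too (0.35 ± 0.09, limma adjusted p = 0.0265). In the difference of the responses 3 of the 20 were lower in KO and 0 higher, beside 4.08% and 5.7% of all. Both Arntl probe sets (limma adjusted p = 0.0988 and 0.143) and Rora 1424034_at (0.06) were not called there. Of 8 probe sets of Dbp, Tef, Hlf and Nfil3, 1 rose and 3 fell in the WT response, and 0 rose and 1 fell in the KO response. Nfil3, a repressor at D-boxes, read 0.554, 0.3 and 0.469 at baseline and 1.43, 1.02 and 1.47 under ANG II, a rise of 1.60 ± 0.19 (limma adjusted p = 0.000131). Dbp, whose product activates through D-boxes, fell by 2.18 ± 0.45 at 1418174_at (limma adjusted p = 0.00417) and fell by 2.58 ± 0.46 at 1438211_s_at (limma adjusted p = 0.00172). In the difference of the responses 1 of the 8 was higher in KO, Dbp 1438211_s_at (2.27 ± 0.64, limma adjusted p = 0.0396). Nfil3 was the 1 that was lower (-1.64 ± 0.27, limma adjusted p = 0.00243). Dbp 1418174_at was not called there (limma adjusted p = 0.0541). At baseline 1 of the 8 was called, Nfil3, by 1.285 ± 0.19 higher in KO (limma adjusted p = 0.0018). Of the 20 activator probe sets 0 were called at baseline, where 4.87% of all were higher and 1.65% lower.

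These genes also separated the mice of the infused KO group. Arntl at 1425099_a_at read 2.10 in KO ANG II replicate 1, 0.688 in replicate 2 and 1.08 in replicate 3, while Dbp at 1418174_at read 0.433, 2.28 and 0.964. The mouse with the highest Arntl of all 12 at 1425099_a_at thus had the lowest Dbp. At 1457740_at the same mouse read 1.26 for Arntl, below WT ANG II replicates 2 and 3 (1.47 and 1.66). Among the WT baseline kidneys, replicate 2 had the higher Arntl, 0.829, and the lower Dbp, 1.76 against 3.63 and 4.20. The clock calls that involve the infused KO group rest on 3 mice that differed this much.

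Per1 also answers hormones and immediate early signals, and both gene groups moved over the same arrays. Of 36 probe sets of 20 immediate early genes, 22 were higher and 0 lower in KO than in WT kidneys at baseline (median 0.60), and 2 rose and 21 fell in the KO response (median -0.67). Over all probe sets 4.87% were higher and 1.65% lower at baseline (median -0.03), and 3.6% rose and 6.31% fell in the KO response (median 0.05). In the WT response 10.9% of all probe sets rose and 13.3% fell (median 0.05). Under ANG II 11.7% of all were higher in KO and 8.17% lower (median -0.04). Egr1, a transcription factor of this group, was 2.18 ± 0.38 higher in KO at baseline (limma adjusted p = 0.0045), and Fos was 1.96 ± 0.33 higher in KO at baseline (limma adjusted p = 0.00419) and fell by 1.67 ± 0.33 in the KO response (limma adjusted p = 0.00714). Of 33 probe sets of 13 genes that glucocorticoids induce, 19 rose and 0 fell in the WT response (median 0.58), and 1 rose and 11 fell in the KO response (median -0.18). At baseline 14 of these 33 were higher in KO and 0 lower (median 0.51). Of these genes Pdk4, a kinase that restrains glucose oxidation, changed most, with a rise of 1.89 ± 0.33 in WT kidneys (limma adjusted p = 0.00152) and a fall of 1.44 ± 0.33 in the KO response (limma adjusted p = 0.0148). Macrophage markers were higher in KO at baseline for 11 of 14 probe sets and lower for 0, with a mean log2 ratio of 0.76 to 1.34 in the KO baseline kidneys and -0.38 to 0.03 in the WT baseline kidneys. In the KO response 10 of the 14 fell and 0 rose (median -1.20), and the mean was -0.10 to 0.34 in the KO ANG II kidneys. In the WT response 6 fell and 0 rose (median -0.52), to a mean of -0.74 to -0.41, and under ANG II 10 were higher in KO and 0 lower (median 0.77). The part of these 3 gene groups in the Per1 values was not tested.

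The genes whose ratios lay closest to a called member over the 12 arrays were found by the root mean square difference of log2 ratios, over all named probe sets outside the 10 genes. For Cry1 the nearest gene was Nfil3, with a difference of 0.27, and the next, Lonrf3, was at 0.47, while Cry1 itself had a root mean square of 0.87. For Per2 at 1417602_at Wee1, a cell cycle kinase known as a clock output, was the second nearest at 0.25, after Lrmda at 0.24. Wee1 read 0.63 in WT baseline replicate 2 and 0.775 to 0.909 in the WT ANG II kidneys, which were low for Per2 as well. The nearest gene was Gdap10 for Per1 (0.19), Nadk2 for Nr1d1 (0.29), Haspin for Nr1d2 (0.26), Abcd4 for Ciart (0.19) and Pomc for Bhlhe41 (0.07). These distances describe 12 arrays with a shared scale and carry no test.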

How the data were processed

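The deposited values came from Affymetrix arrays and had been processed with RMA, per the submitters' processing notes. The deposited unit is a linear ratio to each probe set's median, as the values show: 45099 of 45101 medians over the 12 arrays lay within 0.002 of 1. Ratios keep no intensity, so signal over background is unknown, and the number of arrays limits the precision.

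Deposited ratios were log2 transformed, without the 64 control probe sets. A mean for each of 4 groups was fitted with limma 3.58.1 in R 4.3.3, without a variance trend (8 residual and 5.83 prior degrees of freedom), and 5 comparisons were tested two-sided. The procedure was tested on simulated data. Probe sets were named from the array annotation, and all those of the 10 genes with 1 symbol are reported. For the plots of the members and for the nearest genes, each member was taken by its plainest probe set name (plain _at first, then the lowest number), and the 3 nearest genes were listed for each called member. Of each pathway list, at most 4 called genes are named in a comparison, and not always those with the largest changes. Members, lists and alternatives were chosen with earlier results of these data known. Lists are described by counts and medians.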

Additional observations from a re-analysis of the deposited data

Results flagged for a closer look

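The response to the infusion differed between KO and WT kidneys, by the test of the difference itself, in 4 probe sets of the clock repressors. The KO response minus the WT response was -1.27 on the log2 scale for Per1 (1449851_at) and -1.78 for Cry1 (1433733_a_at). It was 1.22 for Nr1d1 (1426464_at) and 1.20 for Nr1d2 (1416959_at). All of these were tested with limma over 12 arrays, 3 per group, and their adjusted p-values are 0.00794, 0.0133, 0.00645 and 0.0201.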

How the results depend on the processing

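Of 19 called results of single probe sets, 9 kept their call and direction under each alternative run, and 0 of the 19 changed sign. These 9 include all calls of Cry1 and Nr1d1, both Nr1d2 calls in the WT response and the Per1 call in the difference of the responses. The other 10 lost their call under at least 1 alternative, 65 times in all, and 14 results gained one, 27 times in all. Of the members' probe sets, 7 were called in the WT response, and quantile normalization gave 4 and averaging the probe sets of each gene gave 4 of 10 genes. In KO against WT at baseline 5 were called, and quantile normalization gave 3 and the fit of those groups alone 6. That fit cannot be made for the difference of the responses. In KO against WT under ANG II 2 were called. Here the fit of those groups alone gave 1, array weights gave 1, averaging the probe sets of each gene gave 1 and quantile normalization gave 0 (limma, 3 at an unadjusted p under 0.05), while a variance trend, centring on the median and leaving out probe sets of low spread gave 3 each. The cause was not tested. Leaving out 1 array at a time gave 4 to 9 in the WT response (4 without WT baseline replicate 1 or WT ANG II replicate 3), 0 to 1 in the KO response (0 without KO baseline replicate 2, with 1 at an unadjusted p under 0.05), 3 to 8 in the difference (8 without KO ANG II replicate 1), 2 to 6 at baseline (2 without KO baseline replicate 1 or 2, 3 without KO baseline replicate 3, WT ANG II replicate 2 or WT baseline replicate 2) and 0 to 5 under ANG II (5 without KO ANG II replicate 1). The replicate numbers are names. Deviations of same-numbered arrays correlated by -0.16 to 0.22 over 18 pairs, and an array correlated best with its own number in 14 of 36 cases. With the replicate number as a block 6 were called in the WT response, 1 in the KO response, 4 in the difference, 3 at baseline and 0 under ANG II (limma, 5 at an unadjusted p under 0.05). The calls that ended with the block were those of Ciart in the WT response (limma adjusted p = 0.0521) and at baseline (0.0691), Per2 at baseline (0.057), and Per1 and Per2 under ANG II (0.0538 and 0.0552).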

Other observations

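Genes listed as modifiers of clock proteins were followed as well. Of 35 probe sets of 12 such genes 5 rose and 5 fell in the WT response, and 0 rose and 3 fell in the KO response, beside the shares of all probe sets (10.9% rose and 13.3% fell in WT, 3.6% and 6.31% in KO). Csnk1e, a kinase that phosphorylates PER proteins, was higher in KO than in WT kidneys at baseline by 0.61 ± 0.13 at 1417175_at (limma adjusted p = 0.015) and fell by 0.80 ± 0.13 in the KO response (limma adjusted p = 0.00243). Its probe set 1435373_at had the opposite sign in both comparisons, at -0.24 ± 0.08 (limma adjusted p = 0.0851) and 0.25 ± 0.08 (limma adjusted p = 0.0531), and was called lower in KO under ANG II (-0.23 ± 0.08, limma adjusted p = 0.0478). The remaining Csnk1e probe set, 1417176_at, was higher in KO at baseline by 0.49 ± 0.11 (limma adjusted p = 0.016). Its KO response was -0.20 ± 0.11 and not called (limma adjusted p = 0.249). Fbxw11, part of a ligase that removes PER proteins, fell by 0.45 ± 0.08 in the WT response at 1437468_x_at (limma adjusted p = 0.0026). It also fell at 1425461_at and 1425462_at, by 0.38 ± 0.09 and 0.31 ± 0.07 (limma adjusted p = 0.0093 and 0.00877). At 1438336_at and 1447294_at it changed by 0.11 ± 0.11 and 0.08 ± 0.13 and was not called. Prkaa1 fell more, by 0.56 ± 0.14 (limma adjusted p = 0.0146), though its WT groups overlapped. Of 27 probe sets of 13 genes known as clock outputs 5 rose and 2 fell in the WT response, again beside 10.9% and 13.3% of all probe sets. Among these, Scnn1a, a subunit of the epithelial sodium channel that PER1 is known to regulate, rose by 0.67 ± 0.10 at 1425088_at (limma adjusted p = 0.000398), and its response was 0.56 lower in KO (-0.56 ± 0.13, limma adjusted p = 0.0193). Cdkn1a rose more in WT kidneys, by 1.54 ± 0.21 at 1424638_at (limma adjusted p = 0.000313). Those that fell were Avpr2, by 0.43 ± 0.15 (limma adjusted p = 0.0476), and Slc9a3 at 1441236_at, by 0.35 ± 0.12 (limma adjusted p = 0.0497). The WT groups of Slc9a3 overlapped at 1441236_at, and its other probe set changed by -0.14 ± 0.10 and was not called (limma adjusted p = 0.309).

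Markers of other tissues and of nephron segments were also counted at baseline, where 4.87% of all probe sets were higher and 1.65% lower in KO. In KO against WT at baseline 0 of 9 adipocyte probe sets were called, 1 of 12 adrenal cortex probe sets was lower and 1 of 5 red blood cell probe sets was higher. Of 16 proximal tubule probe sets 2 were lower, and of 20 distal tubule and collecting duct probe sets 0 were called.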
